A study of Drosophila melanogaster with 16 samples.

Results

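*CG15022* (FBgn0035547), *CG15023*, *CG7298*, *CG14834* and *CG18649* are 5 protein-coding genes of *Drosophila melanogaster* that carried fewer reads in females of 3 *Uhg4* deletion lines than in females of the wild-type line. They are 5 of the 17490 genes in the count table and were chosen for that difference in females, so their levels in females are given below as a description and without a test. All 5 passed the filter on low counts (a median of at least 2 reads over the libraries), with which 16212 genes were tested. Every library held at least 1 read of each gene, and *CG14834* was lower by less than the other 4. In deletion females, however, *CG15022* had as few as 8 reads in a library and *CG18649* as few as 1. At such counts a low level and absence cannot be told apart.

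The deletion flies were of the lines *208-ΔA*, *208-ΔF* and *208-ΔG*, 3 independent CRISPR alleles that remove the promoter and the first exon of the long noncoding RNA *Uhg4*. They were set against the inbred line DGRP_208, in which the alleles were made, so that all groups share 1 genetic background, free of *Wolbachia*. Each library came from 30 whole flies, 3 to 5 days old and with no treatment named, and each line and sex had 2 libraries, 16 in all. Each deletion line is 1 allele, and the behavioural assays of the study used homozygous flies, while the zygosity of the flies taken for RNA and their mating status are not given in the sources used here. The labels number the libraries of a group as replicates, and the methods call them biological replicates.

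A symbol that starts with CG is a number from the computational annotation of the fly genome, kept where no mutant or function has yet given a gene a name. *Uhg4* hosts small nucleolar RNAs in its introns and its transcript is abundant in ovaries. In a whole female the ovary is a large part of the body: follicle cells around each maturing egg secrete first the vitelline membrane and then the chorion, in short bursts of transcription, while the rest of the body contributes gut, fat body, muscle, nervous system and cuticle. In RNA of whole flies, fewer cells of a type and less RNA per cell cannot be told apart.

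The libraries held 13902521 to 51954693 counted reads. Levels are given as CPM, the read count of a gene scaled to the size of its library, with sizes adjusted by TMM. *Uhg4* itself was at 0.195 to 0.672 CPM in deletion females (median 0.479), against 6.66 and 6.67 CPM in DGRP_208 females. In deletion males it was at 0.213 to 1.02 CPM (median 0.580), against 0.974 and 1.89 CPM in DGRP_208 males. The female groups did not overlap and the male groups did. The libraries also differed in reads at 185 chemoreceptor genes, which are silent in nearly all cells of the body: their median was 0.434 to 4.02 RPKM (CPM per kilobase of gene) in deletion females and 0.713 and 1.91 RPKM in DGRP_208 females. The 4 *208-ΔG* libraries, at 2.45 to 4.02 RPKM, were among the 5 highest. *208-ΔA* male replicate 2 held female transcripts (*Yp1* at 183 CPM, where no other male library passed 28.5), and male ones were present in *208-ΔF* female replicate 2 (*Mst57Db* at 33.3 CPM, where no other female library passed 1.96).

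All 5 genes lie on the minus strand of chromosome arm 3L (genome build dm6), where 9.99% of the tested genes with a known place lie. The 5 are a choice, and other genes called lower in deletion females lie on 2L, 2R and 3R, so this place is a description. *CG15022* (3L:4459193-4460317, 2 exons, 295 codons) and *CG15023* (3L:4460622-4461504, 2 exons, 168 or 169 codons in its 3 transcripts) are neighbours with 304 bases between them. *CG14834* (3L:7345698-7347123) has 1 exon with 407 codons. *CG18649* (3L:15053568-15054135) has 1 exon with 92 codons, placed inside *Sytbeta*, a synaptotagmin gene on the same strand, without overlap with any of its exons. *CG7298* (3L:20202070-20203687) has 3 exons and 369 codons. No annotated gene overlaps the other 4.

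*CG15022* was at 0.653 and 0.540 CPM in *208-ΔA* females, 0.672 and 1.47 CPM in *208-ΔF* females and 4.64 and 2.18 CPM in *208-ΔG* females, against 14.2 and 12.2 CPM in DGRP_208 females. In reads this was 8 to 95 per deletion library, against 587 and 221. Every deletion female library was below both DGRP_208 female libraries, and the 2 *208-ΔG* libraries were the highest of the 6. The average of the 3 lines was 10.2-fold lower than DGRP_208 (log2 fold change -3.35 ± 0.39, SE), with -4.47 ± 0.62 in *208-ΔA*, -3.61 ± 0.58 in *208-ΔF* and -1.96 ± 0.54 in *208-ΔG*. Without the *208-ΔG* libraries the average was -3.99.

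In males *CG15022* was at 0.595 and 1.03 CPM in *208-ΔA*, 1.38 and 1.34 CPM in *208-ΔF* and 2.34 and 3.17 CPM in *208-ΔG*, against 0.830 and 1.71 CPM in DGRP_208. The male groups overlapped, again with *208-ΔG* on top. By group mean, DGRP_208 females stood first at 13.2 CPM without overlap with any other group. *208-ΔG* females (3.41 CPM) and *208-ΔG* males (2.75 CPM) followed and overlapped each other. The other 5 groups, at 0.597 to 1.36 CPM, overlapped from each to the next. The female mean was 10.4 times the male mean in DGRP_208, and 0.734, 0.788 and 1.24 times in *208-ΔA*, *208-ΔF* and *208-ΔG*.

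*CG15023* was at 0.980 and 1.11 CPM in *208-ΔA* females, 2.63 and 1.35 CPM in *208-ΔF* females and 1.86 and 1.42 CPM in *208-ΔG* females, against 8.37 and 10.6 CPM in DGRP_208 females. The deletion females formed a narrow band, of 12 to 86 reads per library, below the DGRP_208 females with 347 and 193 reads. The average was 6.31-fold lower (log2 fold change -2.66 ± 0.34, SE), at -3.17 ± 0.50, -2.26 ± 0.48 and -2.54 ± 0.48 in *208-ΔA*, *208-ΔF* and *208-ΔG*. In males it was at 2.60 and 1.15 CPM in *208-ΔA*, 1.94 and 2.15 CPM in *208-ΔF* and 2.34 in both *208-ΔG* libraries, against 1.03 and 0.738 CPM in DGRP_208. All 6 deletion male libraries were above both DGRP_208 male libraries, the opposite side from the females. DGRP_208 males had the lowest mean of the 8 groups (0.884 CPM) and overlapped only *208-ΔA* females (1.05 CPM). *208-ΔG* males, second after DGRP_208 females, overlapped neither neighbour in that order. The female mean was 10.8 times the male mean in DGRP_208 and 0.557 to 0.972 times in the deletion lines.

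*CG7298*, the most abundant of the 5 per kilobase in DGRP_208 females, was at 12.6 and 8.54 CPM in *208-ΔA* females, 6.50 and 16.7 CPM in *208-ΔF* females and 7.86 and 6.54 CPM in *208-ΔG* females, against 49.9 and 107.5 CPM in DGRP_208 females. The groups did not overlap, although the 2 DGRP_208 libraries themselves differed widely. The average was 8.20-fold lower (log2 fold change -3.04 ± 0.38, SE), and the lines were close to each other, at -2.90 ± 0.55, -2.76 ± 0.54 and -3.45 ± 0.56 in *208-ΔA*, *208-ΔF* and *208-ΔG*. Without DGRP_208 female replicate 2, the average was -2.28. Male levels were 8.63 and 4.24 CPM in *208-ΔA*, 5.21 and 3.82 CPM in *208-ΔF* and 4.95 and 5.98 CPM in *208-ΔG*, against 3.55 and 4.96 CPM in DGRP_208, with all groups overlapping their neighbours in rank. The female mean was 18.5 times the male mean in DGRP_208 and stayed above it in the deletion lines, at 1.32 to 2.58 times.

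*CG14834* was at 8.41 and 9.75 CPM in *208-ΔA* females, 5.50 and 7.57 CPM in *208-ΔF* females and 15.2 and 15.1 CPM in *208-ΔG* females, against 22.5 and 31.4 CPM in DGRP_208 females. It had 103 to 637 reads per deletion female library, and it showed the smallest difference of the 5, 2.79-fold lower on average (log2 fold change -1.48 ± 0.20, SE). By line this was -1.57 ± 0.27 in *208-ΔA*, -2.04 ± 0.27 in *208-ΔF* and -0.83 ± 0.27 in *208-ΔG*, the value nearest to 0 of any line and gene. In males the levels were 18.1 and 13.2 CPM in *208-ΔA*, 18.9 and 18.3 CPM in *208-ΔF* and 14.5 and 15.1 CPM in *208-ΔG*, against 13.7 and 13.1 CPM in DGRP_208. Males of every line thus had much the same level, between that of *208-ΔA* females and that of DGRP_208 females. In the order of means, *208-ΔA* males (15.6 CPM) and *208-ΔG* females (15.1 CPM) overlapped and no other neighbours did, although *208-ΔG* females and males (14.8 CPM) were all but level. The female mean was 2.01 times the male mean in DGRP_208, and 0.582, 0.352 and 1.03 times in *208-ΔA*, *208-ΔF* and *208-ΔG*.

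*CG18649*, the gene with the shortest protein, was at 0.653 and 0.857 CPM in *208-ΔA* females, 0.488 and 0.231 CPM in *208-ΔF* females and 0.0488 and 0.213 CPM in *208-ΔG* females, against 5.43 and 2.54 CPM in DGRP_208 females. In *208-ΔG* females these levels rested on 1 and 9 reads, against 225 and 46 reads in DGRP_208 females. The average was 11.6-fold lower (log2 fold change -3.54 ± 0.48, SE), with -2.38 ± 0.67 in *208-ΔA*, -3.48 ± 0.70 in *208-ΔF* and -4.75 ± 0.77 in *208-ΔG*. The average was -2.88 without DGRP_208 female replicate 1 and -2.89 without the *208-ΔG* libraries. *208-ΔG* was the lowest line here, whereas it was the highest for *CG15022* and *CG14834*. Male levels were 2.16 and 1.71 CPM in *208-ΔA*, 1.59 and 3.17 CPM in *208-ΔF* and 0.505 and 1.09 CPM in *208-ΔG*, against 2.32 and 1.51 CPM in DGRP_208. This was the only one of the 5 for which DGRP_208 females (mean 3.98 CPM) overlapped a male group, *208-ΔF* (2.38 CPM). *208-ΔG* males (0.796 CPM) overlapped *208-ΔA* females (0.755 CPM) and lay below the other males. *208-ΔF* and *208-ΔG* females came last, without overlap. The female mean was 2.08 times the male mean in DGRP_208, against 0.391, 0.151 and 0.165 times in *208-ΔA*, *208-ΔF* and *208-ΔG*.

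**Figure D1:**
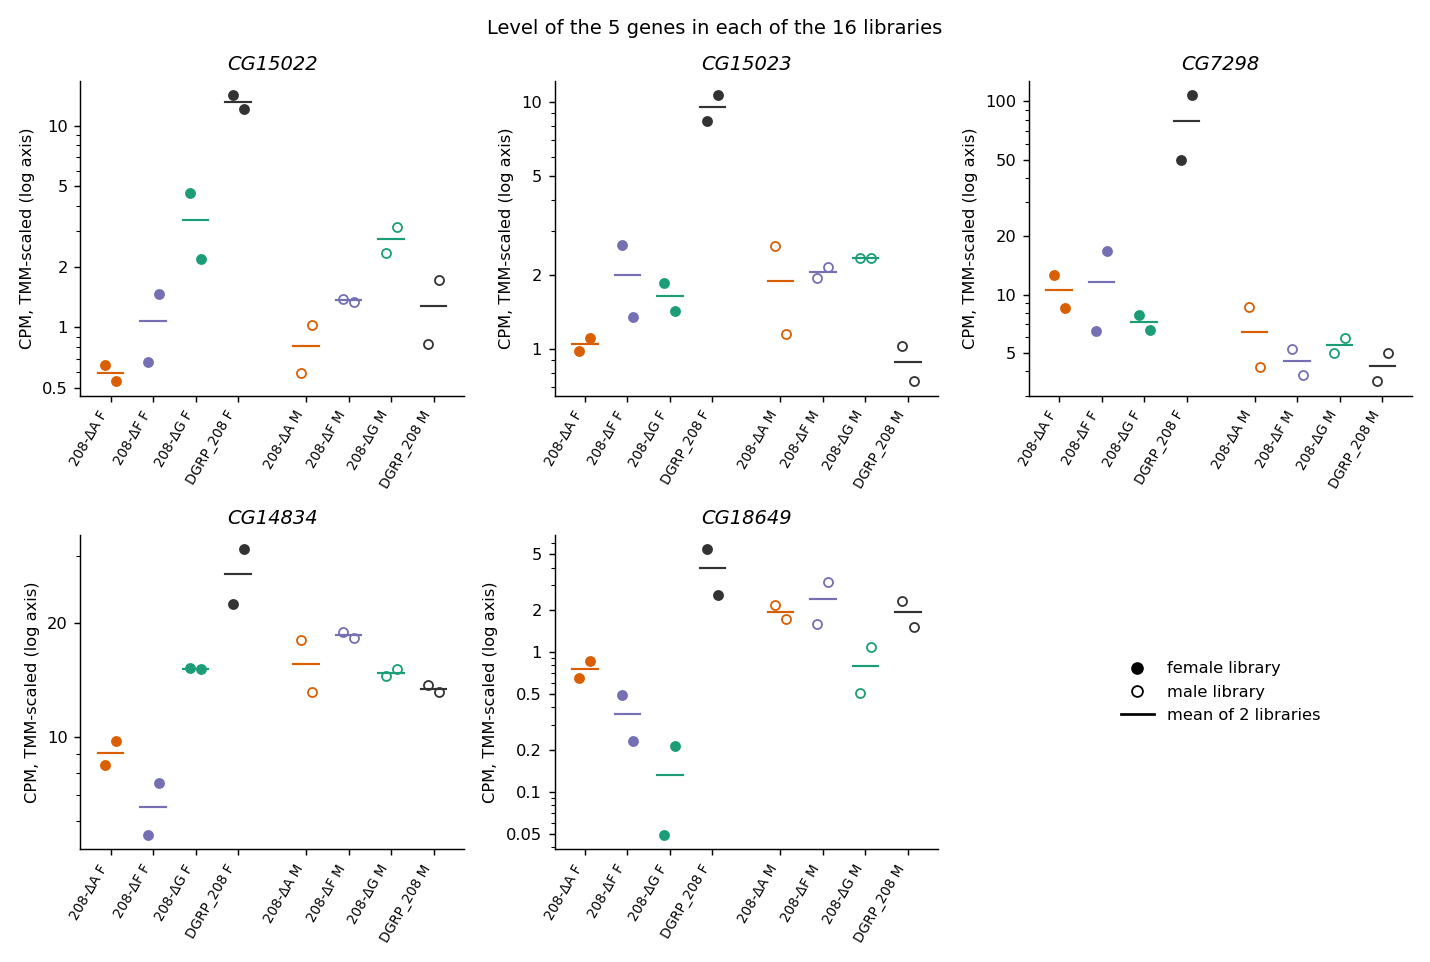
CPM of the 5 genes (log axis) in each of the 16 libraries, by line and sex; points are libraries, filled for females (F) and open for males (M), and bars are means of 2 libraries. Both DGRP_208 female libraries lie above all 6 deletion female libraries for each gene, and male libraries of *CG15023* lie above those of DGRP_208 in all 3 deletion lines.

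With edgeR's quasi-likelihood test and Benjamini-Hochberg adjustment, 17 of the 16212 genes tested (0.105%) were lower in deletion females at an adjusted p under 0.05, and the 5 genes were among them, which is the contrast they were chosen by. Likewise, all deletion female libraries were below both DGRP_208 female libraries for 473 genes (2.92%), the 5 included, and above both for 261 genes (1.61%). Of the lines taken singly, *208-ΔA* had 5 genes lower (0.0308%), with *CG15022* the only one of the chosen genes, and 3 higher (0.0185%), and *208-ΔF* and *208-ΔG* had 0 (0%). The number of the 5 under the threshold varied with the setting, and so did the number of all 16212 genes called lower. Without all *208-ΔG* libraries it was 0 of the 5, with 3 genes in all. With female libraries alone it was 0, with 0 genes in all, and with a linear model per gene 0, with 6. On library sizes not scaled by TMM it was 2, with 12 in all. DESeq2 and limma-voom both gave 5, among 45 and 22 genes called lower. Leaving out 1 library left 1 in its group, so only fold changes of such fits are given here. The 5 were not all called in each of those fits. The female log2 fold change then ranged from -3.55 to -3.18 for *CG15022* and from -2.84 to -2.36 for *CG15023*. For *CG7298* it was -3.49 to -2.28, for *CG14834* -1.70 to -1.12 and for *CG18649* -4.03 to -2.88. The direction was the same throughout. These counts come from the contrast and libraries the genes were chosen by, so they add no separate support for the female difference.

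Whether the 3 deletion lines differed among themselves is a comparison that the choice of genes did not use. *CG15022* was higher in *208-ΔG* than in *208-ΔA* females by 2.52 ± 0.58 on the log2 scale (SE; adjusted p = 0.0594, edgeR) and *CG14834* by 0.74 ± 0.27 (adjusted p = 0.0627, edgeR). *CG18649* was lower in *208-ΔG* than in *208-ΔA* females, with a log2 difference of -2.37 ± 0.76 (adjusted p = 0.0594, edgeR). With the 1 read of *208-ΔG* female replicate 1 as the only *208-ΔG* value, it was -3.94, and with replicate 2 alone (9 reads) it was -1.87. With replicate 2 alone, the difference of *CG15022* was 1.83. Against *208-ΔF* females, *208-ΔG* females were higher in *CG15022* by 1.65 ± 0.54 and in *CG14834* by 1.21 ± 0.27 (adjusted p = 0.366 each, edgeR), and for *CG15022* this was 0.99 without *208-ΔG* female replicate 1 and 2.27 without *208-ΔF* female replicate 2. In *CG15023* and *CG7298* the lines lay within 0.91 of each other on the log2 scale, with adjusted p from 0.286 to 0.896 over the 3 pairs of lines.

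None of these 15 differences passed: edgeR called 0 of 15, as it called 0 of 16212 genes (0%) for each pair of lines, while 5 of the 15 had an unadjusted p under 0.05. Of all 16212 genes, 8488 had an unadjusted p under 0.05 (edgeR) for *208-ΔG* against *208-ΔA*, where many genes share an adjusted p close to 0.06. The number was 1877 for *208-ΔG* against *208-ΔF* and 1051 for *208-ΔF* against *208-ΔA*. DESeq2 called 4 of the 15, namely *CG15022*, *CG14834* and *CG18649* in *208-ΔG* against *208-ΔA* and *CG14834* in *208-ΔG* against *208-ΔF*. The same test called 8174 of 16212 genes (50.4%) in *208-ΔG* against *208-ΔA*, so 3 of 5 there was near the share of all genes, and 12 genes (0.074%) in *208-ΔG* against *208-ΔF*. limma-voom and the linear model per gene called 0 of the 15. Without either *208-ΔF* female library, *208-ΔG* female replicate 2, DGRP_208 female replicate 2 or either DGRP_208 male library, edgeR called 2 of the 15, *CG15022* and *CG18649* in *208-ΔG* against *208-ΔA*, where these fits called 4870 to 7239 of all genes (30.0% to 44.7%).

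The males are libraries that the choice of genes did not use. edgeR called 0 of the 5 lower and 0 higher in deletion males, where 4 of 16212 genes (0.0247%) were called lower and 6 (0.037%) higher. 1 of the 5 and 477 of all genes had an unadjusted p under 0.05, and DESeq2, limma-voom and the linear model per gene called 0 of the 5 too. The gene with the small unadjusted p was *CG15023*, with 1.15 to 2.60 CPM in deletion males (median 2.24) against 1.03 and 0.738 CPM in DGRP_208 males, a log2 fold change of 1.23 ± 0.41 (SE; adjusted p = 0.999, edgeR). It was higher in 6 of 6 deletion male libraries, as were 447 genes (2.76%), and in males it was the only one of the 5 whose groups did not overlap. None of the 5 was without overlap in the other direction, as 250 genes (1.54%) were.

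*CG7298*, *CG14834* and *CG15022* differed in males by 0.35 ± 0.43, 0.28 ± 0.22 and 0.19 ± 0.44 on the log2 scale, and *CG18649* by -0.31 ± 0.50 (SE), none past the threshold (edgeR, adjusted p = 0.999 for all 4). For *CG15022* the sign turned with the libraries kept: -0.34 when DGRP_208 male replicate 1 was left out, -0.038 when *208-ΔA* male replicate 2 was, and -0.43 when those of *208-ΔG* were. That of *CG18649* was 0.077 without the *208-ΔG* libraries. By line, edgeR called 0 of 15 values in males, against 7 genes higher in *208-ΔA* (0.0432%), 5 higher in *208-ΔF* (0.0308%) and 0 in *208-ΔG* (0%). DESeq2 and limma-voom called 0 of the 15 as well. 3 of the 15, all *CG15023*, had an unadjusted p under 0.05 (edgeR). Of all 16212 genes, 1583 had one in *208-ΔA*, 513 in *208-ΔF* and 1984 in *208-ΔG* males. The lines were compared with the same DGRP_208 male libraries, so the 3 values of *CG15023* are not separate results. In *208-ΔG* males the 2 values farthest from 0 other than that of *CG15023* were 1.11 ± 0.54 for *CG15022* and -1.26 ± 0.64 for *CG18649* (adjusted p = 0.411 and 0.430, edgeR).

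**Figure D2:**
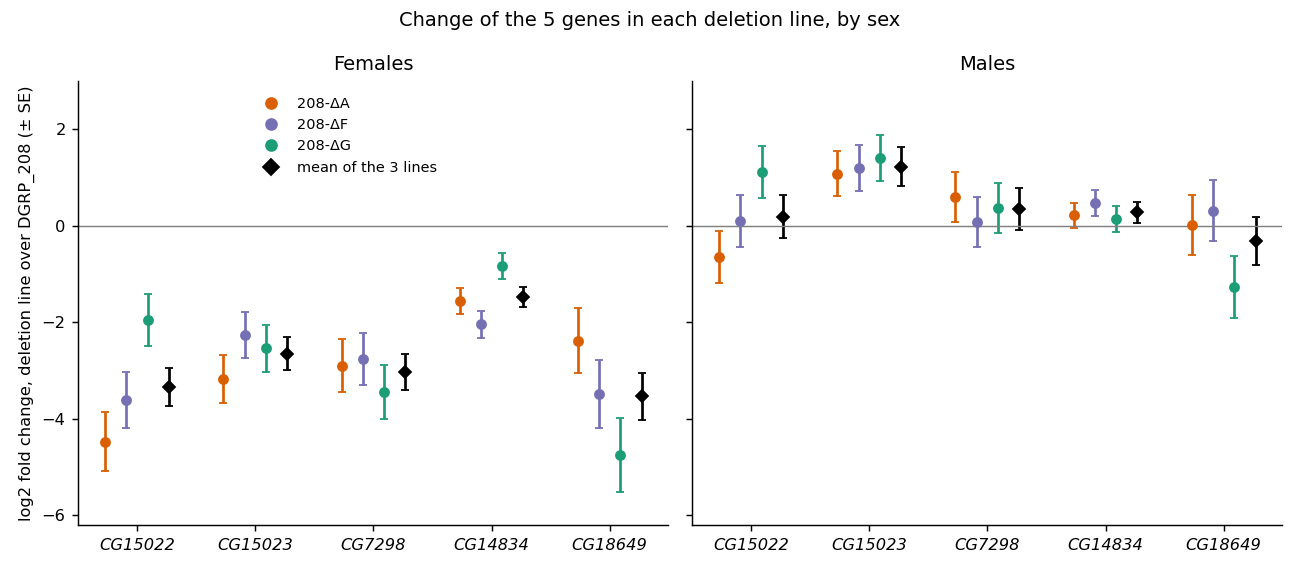
Log2 fold change of each gene in each deletion line over DGRP_208 (points, ± SE from the edgeR fit) and for the mean of the 3 lines (diamonds), in females on the left and in males on the right. In females all values are below 0, from -4.75 to -0.83, by the choice of the genes; in males none passed the test, and the values of *CG15022* and *CG18649* lie on either side of 0 among the lines.

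*CG15022* and *CG18649* moved with the chemoreceptor level of the libraries, in opposite directions. Over the 8 male libraries, log2 RPKM of *CG15022* and of the chemoreceptor median had a Pearson r of 0.914 (exact permutation p = 2.23e-04, two-sided, adjusted over 10 relations p = 0.00223) and a Spearman rho of 0.952 (exact permutation p = 0.00114, adjusted p = 0.0114). Leaving out the 2 libraries most distant from the median gave an r of 0.854. In *CG18649* r was -0.775 (exact permutation p = 0.00893, adjusted p = 0.0446) and rho -0.905 (exact permutation p = 0.00456, adjusted p = 0.0228), and r was -0.828 without the 2 farthest libraries.

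In the 6 deletion female libraries r was 0.887 for *CG15022* and -0.859 for *CG18649* (exact permutation p = 0.0264 and adjusted p = 0.066 for both), with rho of 0.829 and -0.829 (exact permutation p = 0.0583 and adjusted p = 0.146 for both). None of the other 6 relations, those of *CG15023*, *CG7298* and *CG14834* with this level, passed (adjusted p of r from 0.319 to 0.999, exact permutation). With library sizes not scaled by TMM, 1 of the 10 relations passed in place of 2. The 4 *208-ΔG* libraries have 4 of the 5 highest chemoreceptor levels, 2 libraries per group are too few for a value within a line, and line and chemoreceptor level therefore cannot be told apart in these relations. The permutations shuffled libraries freely, although each line gave 2 of them per sex, so their p-values can be too small.

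Per kilobase, *CG15022* was at 0.461 to 1.41 times the chemoreceptor median of its own library in deletion females and at 0.609 to 1.45 times in the 8 male libraries. In DGRP_208 females it was at 6.97 and 16.1 times. Outside DGRP_208 females, *CG15022* therefore had about the level of genes that are silent in most cells, and the higher reads of *208-ΔG* went with more reads at those genes. *CG18649* behaved otherwise: it was at 0.0214 to 2.65 times the chemoreceptor median in deletion females, against 5.00 and 6.27 times in DGRP_208 females. With the chemoreceptor level as a term in the fit, the female log2 fold changes were -3.58 for *CG15022* and -3.52 for *CG18649*. In the same fit the log2 difference of *208-ΔG* from *208-ΔA* females was 1.45 for *CG15022*, in place of 2.52, and -1.91 for *CG18649*, in place of -2.37 (adjusted p = 0.697 each, edgeR). That of *208-ΔG* from *208-ΔF* females was 1.02 for *CG15022*, in place of 1.65 (adjusted p = 0.933, edgeR).

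**Figure D3:**
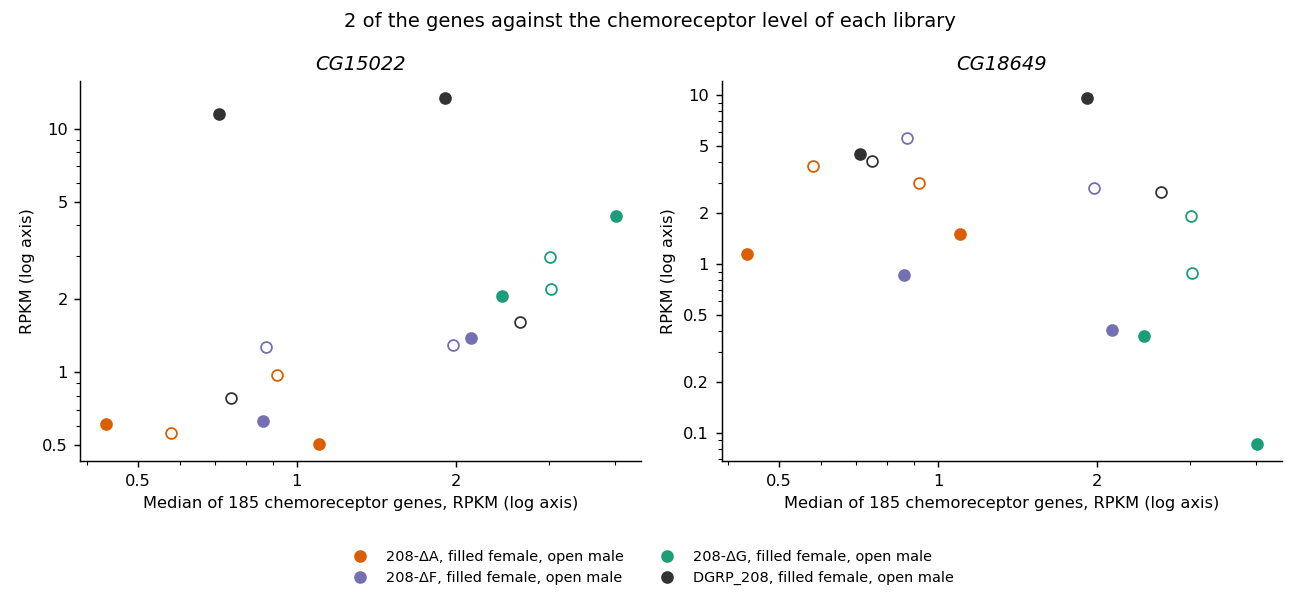
RPKM of *CG15022* and *CG18649* against the median RPKM of 185 chemoreceptor genes in the same library, both on log axes, for 16 libraries coloured by line, filled for females and open for males. *CG15022* climbs with the chemoreceptor level except in the 2 DGRP_208 female libraries, at 13.3 and 11.5 RPKM, and *CG18649* falls to 0.0860 RPKM in the *208-ΔG* female library with the highest chemoreceptor level.

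The genes around the 5 give the same libraries a local reference. *CG11345*, on the other side of *CG15022* from *CG15023*, averaged 6.46 CPM in deletion females and 6.04 CPM in DGRP_208 females (log2 fold change 0.06 ± 0.38, SE; adjusted p = 1, edgeR). *CG15024*, the next gene after *CG15023*, averaged 4.95 CPM in deletion females and 4.46 CPM in DGRP_208 females (log2 fold change -0.24 ± 0.77). It varied widely, from 0.327 to 11.9 CPM in deletion females, against 6.925 and 1.985 CPM in DGRP_208 females. *CG15022* and *CG15023* thus stood between neighbours with nearly equal means, of which that of *CG15024* is uncertain. *obst-F*, an obstructor gene beside *CG7298*, averaged 5.78 CPM in deletion females and 3.21 CPM in DGRP_208 females (log2 fold change 0.42 ± 0.99). *CG7290*, on the other side of *CG7298*, averaged 6.56 CPM and 5.42 CPM (-0.04 ± 0.78). Around *CG14834*, *Cln7* had a log2 fold change of -0.20 ± 0.21 and *Srp19*, which encodes a subunit of the signal recognition particle, one of -0.52 ± 0.34 (edgeR, adjusted p = 1 for both). *Sytbeta*, which holds *CG18649*, was at 13.8 to 38.8 CPM in deletion females (median 21.3), against 23.1 and 13.9 CPM in DGRP_208 females, so its groups overlapped.

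The neighbours of *CG18649* differed more from 0. *EAChm*, on one side, was at 0.781 to 3.08 CPM in deletion females, against 7.07 and 4.14 CPM in DGRP_208 females, a log2 fold change of -1.92 ± 0.42 that did not pass (adjusted p = 0.234, edgeR). *CG43680*, on the other, had a log2 fold change of -0.92 ± 0.35 (adjusted p = 1, edgeR). Of 20 neighbours tested, up to 3 on either side of each gene and without the 5 themselves, edgeR called 0 in either sex. In females 3 of the 20 had an unadjusted p under 0.05 (edgeR), against 613 of the 16212 genes tested. A negative value in females was found in 13 of 20, with a median of -0.14 against -0.01 over all genes tested. The smallest adjusted p was 0.0769, for *CG12607*, the third annotated gene from *CG15022*, with 2.97 CPM in deletion females and 8.69 CPM in DGRP_208 females on average.

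**Figure D4:**
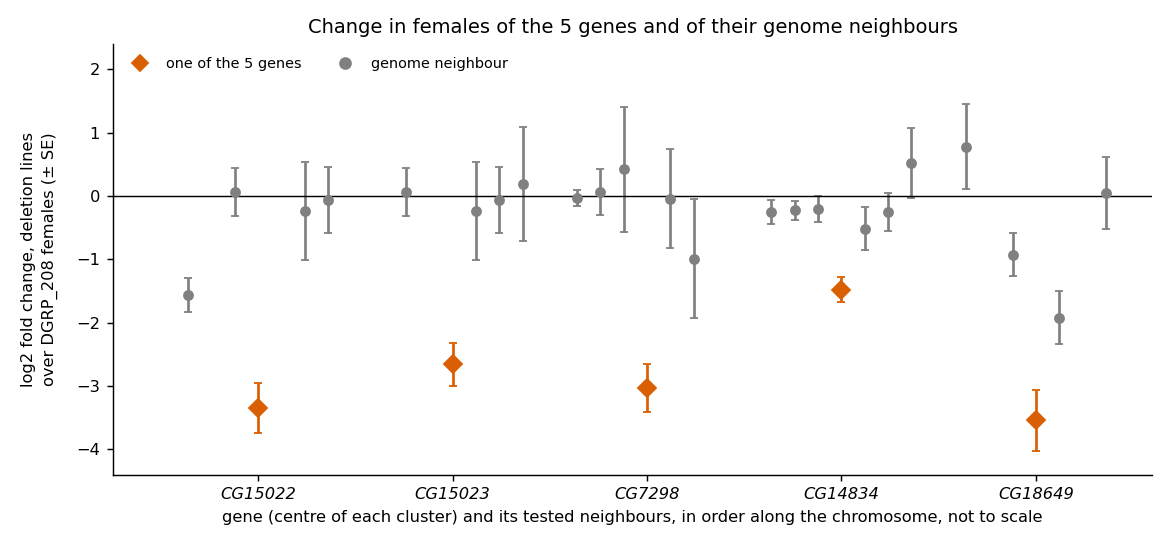
Log2 fold change in females, deletion lines over DGRP_208 (± SE), of the 5 genes (diamonds) and of their tested neighbours (grey points), drawn in chromosomal order and not to scale; genes near both *CG15022* and *CG15023* are drawn beside each. Most neighbours lie near 0, and the farthest below it are *EAChm* at -1.92 and *CG12607* at -1.57, neither of which passed the test.

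Transcripts of egg formation were read in the same libraries, since the 5 genes were highest in DGRP_208 females. The 9 major chorion genes summed to 280 to 936 CPM in deletion females (median 459), against 935 and 3033 CPM in DGRP_208 females, and the groups met at about 935 CPM. All 9 had a negative value, with a median log2 fold change of -2.01, and edgeR called 0 of 9. At an unadjusted p under 0.05 (edgeR) were 4 of 9, against 613 of the 16212 genes tested. *Cp19* was at 0.735 to 37.7 CPM in deletion females, against 95.7 and 142.0 CPM in DGRP_208 females (log2 fold change -2.94 ± 0.94, SE; adjusted p = 0.795, edgeR). The DGRP_208 female library with more chorion transcripts was also the one with more *CG15023*, *CG7298* and *CG14834*, while *CG15022* and *CG18649* were higher in the other one.

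The other egg lists gave smaller values. The vitelline membrane and early eggshell genes had a median of -0.95 with 0 of 11 called, and the yolk genes, the 3 yolk proteins and a further gene of yolk uptake, -1.03 with 0 of 4 called. Genes of the mature follicle and ovulation (0 of 10 called) and maternal RNAs of the germ line (0 of 8 called) had medians of 0.01 and 0.04. Of these egg lists, the chorion genes were the only one with an unadjusted p under 0.05 in females (edgeR). In deletion males, all of them had 0 genes called, and the yolk genes had a median of 1.87, with *208-ΔA* male replicate 2 the highest at 1567 CPM in sum. Transcripts of the male tract had female medians of 0.59 for seminal fluid genes (0 of 10 called) and 0.81 for testis genes (0 of 9 called), with the seminal fluid genes at 97.9 CPM in sum in *208-ΔF* female replicate 2. The part of chorion transcripts in the female levels of the 5 genes was not tested.

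Among structural proteins of cuticle and gut lining, the Tweedle family of cuticle proteins had a median of -0.22 in females, with 1 of 26 called lower (edgeR, adjusted p under 0.05) and 16 of 26 negative. Of the 26, 6 had an unadjusted p under 0.05 (edgeR), against 613 of the 16212 genes tested. The one called was *TwdlD*, with 0.490 to 3.47 CPM in deletion females, against 13.3 and 12.1 CPM in DGRP_208 females (log2 fold change -3.21 ± 0.44, SE; adjusted p = 0.0186, edgeR). *TwdlB* was next, at -3.34 ± 0.54 (adjusted p = 0.0542, edgeR). Of the peritrophin and obstructor genes, which encode chitin-binding proteins of the gut lining and cuticle, 0 of 10 were called in females (edgeR, 1 at an unadjusted p under 0.05). The median was -0.23, but the largest changes were increases, 1.64 ± 0.70 for *obst-H* and 1.06 ± 0.80 for *obst-G* (SE).

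Finally, the genes whose levels ran most like each of the 5 over the 16 libraries were taken by Pearson r of log2 CPM among 13544 genes with at least 1 CPM on average in DGRP_208 females. The 16 points share libraries, depth and sex, and the 5 were chosen for their female difference, which weighs in r, so r is a description. For *CG15022* these were *Boot* (r = 0.947), *CG10953* (0.946), *TwdlD* (0.942) and *TwdlB* (0.932). *Boot*, whose protein takes part in the nuclear export of piRNA precursors in the germ line, begins 614 bases from *Uhg4* and runs away from it on the opposite strand. It was at 2.87 to 9.28 CPM in deletion females (median 4.47), against 39.5 and 61.7 CPM in DGRP_208 females, and at 4.08 to 8.69 CPM in deletion males, against 3.64 and 6.05 CPM in DGRP_208 males. In females edgeR called *Boot* lower (log2 fold change -3.405 ± 0.306, adjusted p = 0.00237, edgeR). The authors, with an analysis of variance over lines and both sexes, did not find *Boot* differentially expressed. They report from Sanger sequencing that the deletions leave *Boot* intact. They also allow that promoter elements between *Boot* and *Uhg4* may serve both genes. The cause of its lower level was not tested. DGRP_208 females again stood alone, in a gene picked for its likeness to *CG15022*.

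For *CG15023* they were *Lcp65Ag2* (r = 0.863), a larval cuticle protein gene, *Boot* (0.832), *CG13159* (0.793) and *CG34268* (0.788). *Lcp65Ag2* was at 0.490 to 2.26 CPM in deletion females, against 19.4 and 13.8 CPM in DGRP_208 females, and at 0.559 to 2.32 CPM in deletion males, against 0.515 and 0.384 CPM in DGRP_208 males. It shared both features of *CG15023*, deletion females below and deletion males above DGRP_208, which its choice by r over these libraries favours. Its male difference did not pass (adjusted p = 0.999, edgeR). *CG7298* had *Dolk* (0.868), the dolichol kinase gene, *CG6296* (0.857), *CG16775* (0.853) and *Tsp2A* (0.853), a tetraspanin of gut cell junctions. *Dolk* differed far less than *CG7298*, with 15.8 to 20.5 CPM in deletion females against 25.7 and 24.6 CPM in DGRP_208 females.

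For *CG14834* they were *Muc4B* (r = 0.865), a mucin gene, *CG33269* (0.831), *Cpr67Fa1* (0.716), a cuticular protein gene, and *CG5664* (0.715). *Muc4B* was at 4.21 to 14.4 CPM in deletion females, against 15.4 and 40.2 CPM in DGRP_208 females. For *CG18649* they were *qua* (0.896), which encodes a villin-like actin-binding protein of the nurse cells, *GstE3* (0.863), a glutathione S-transferase gene, *CG7084* (0.850) and *Mal-A6* (0.822), a maltase gene. *qua* was at 35.5 to 67.4 CPM in deletion females, against 127.7 and 123.7 CPM in DGRP_208 females, and among males it was lowest in *208-ΔG*, at 59.1 and 55.9 CPM, as *CG18649* was. With Spearman's rho in place of r, 5 of the 20 places went to the same genes.

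**Figure D5:**
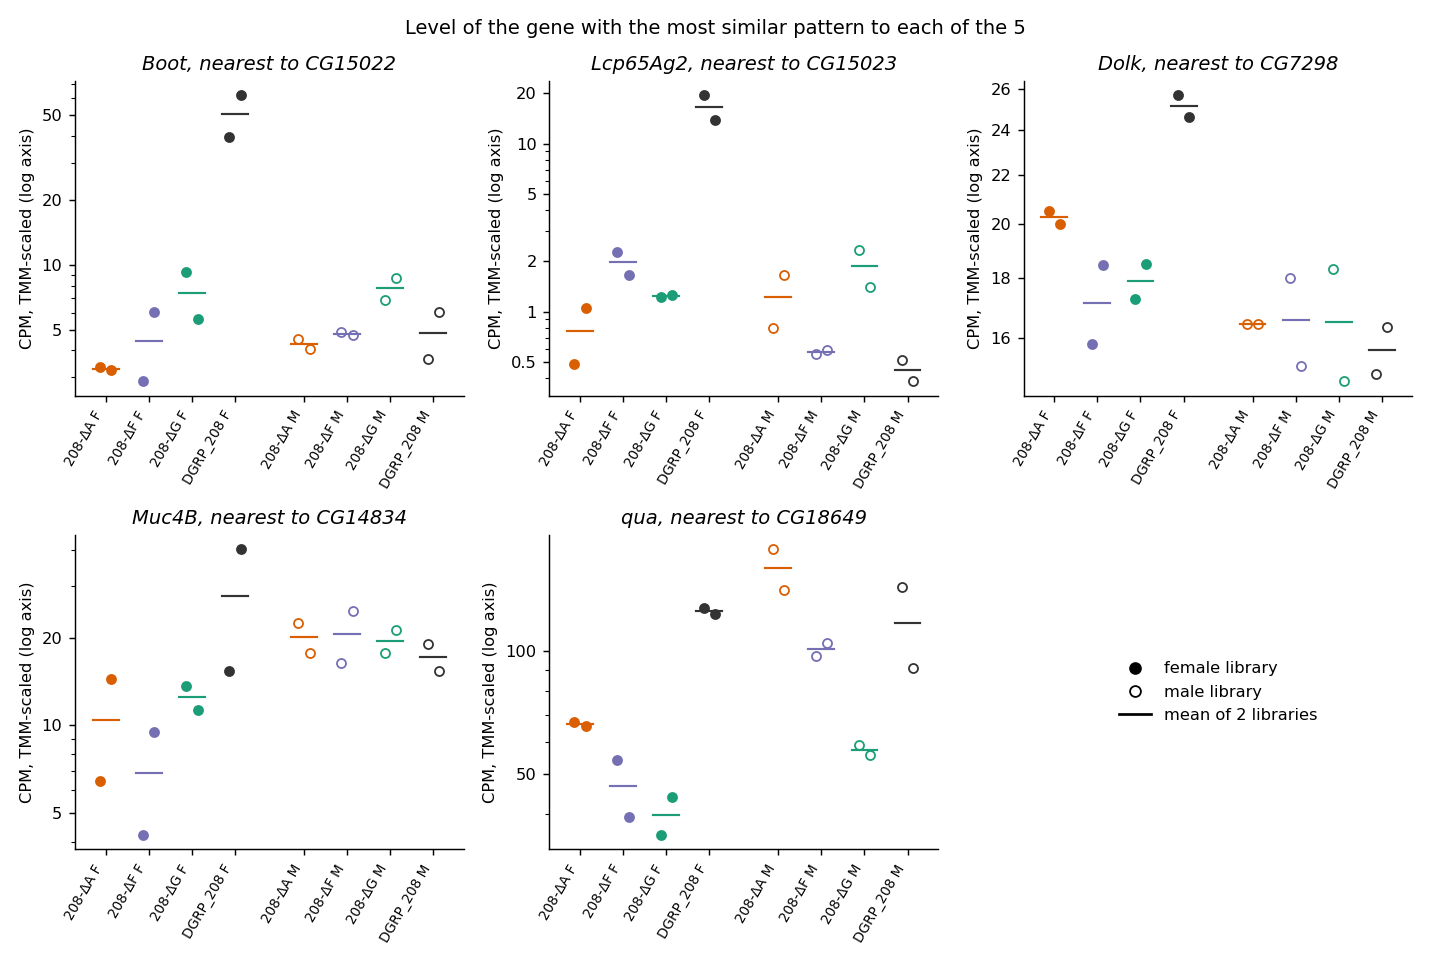
CPM (log axis) in the 16 libraries of the gene with the highest Pearson r to each of the 5, drawn as for the 5 genes themselves: filled points are female libraries, open points male ones, and bars means of 2 libraries. *Boot* and *Lcp65Ag2* are high in DGRP_208 females alone, at 39.5 to 61.7 and 13.8 to 19.4 CPM, whereas *qua* reaches 91.3 to 178.2 CPM in 6 of the 8 male libraries.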

How the data were processed

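The authors filtered reads with AfterQC, aligned them with GSNAP to dm6 and counted unique alignments per gene with featureCounts of Subread; versions of GSNAP and Subread and the strand setting are not given in the sources used here. The deposited table holds raw counts per gene, not normalized, for 16 libraries, and a column of gene lengths in bases, used for RPKM. The 5 genes and all gene lists were chosen with earlier results of these data known. Of 17490 genes, 16212 had a median count of at least 2. Counts were fitted with edgeR 4.0.16 (TMM, quasi-likelihood test, 8 group means, 8 residual degrees of freedom; R 4.3.3) over all 16 libraries, with Benjamini-Hochberg adjustment over 16212 genes and calls under 0.05. P-values measure the spread between 2 libraries per group. Standard errors are those implied by the F statistic. Named besides the 5 were the 4 genes most like each in level (prior count 2), their nearest neighbours, the 2 largest changes per list and *Uhg4*; lists naming fewer genes are summarised, and *Sytbeta* and *CG12607* were added after their values were seen. Places are from the Ensembl annotation of the same build. DESeq2 1.42.0 and limma 3.58.1 served as alternatives. Scripts were tested on simulated data. Replicate numbers were not used to pair libraries, and no batch is labelled.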

Additional observations from a re-analysis of the deposited data

Results flagged for a closer look

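The libraries of *CG15023* lay on opposite sides of DGRP_208 in the sexes. Every deletion female library was below both DGRP_208 female libraries (0.980 to 2.63 CPM, against 8.37 and 10.6 CPM), and every deletion male library was above both DGRP_208 male libraries (1.15 to 2.60 CPM, against 1.03 and 0.738 CPM). The male difference did not pass the test (adjusted p = 0.999, edgeR), and 447 of 16212 genes (2.76%) had all deletion males above both DGRP_208 males. The male levels rested on 40 to 105 reads per deletion library and on 36 and 25 reads in DGRP_208. Per kilobase, they were at 0.944 to 5.50 times the chemoreceptor median of the same library in deletion males. In DGRP_208 males they were at 1.68 and 0.341 times, so several lay near the level of genes silent in most cells. The log2 fold change in males was 3.88 above that in females. The difference between the sexes was not tested, since the gene was chosen for its level in females. No library stood apart from the other deletion libraries of its sex by Dixon's test for an extreme value in any of the 5 genes.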

How the results depend on the processing

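With 2 libraries per group, 1 to 95 reads per library in several groups and 1 wild-type line, small differences could not be detected. Under every alternative run 0 of the 5 genes was called in males, together or by line. The count of differences between deletion lines in females was 0 of 15, 4 with DESeq2, 3 at an adjusted p under 0.1, and 0 to 2 with a library left out. For *208-ΔG* against *208-ΔA*, the pair with all 3 and both of the 2, these settings called 53.6% of all genes under 0.1 and up to 44.7% with a library left out, and DESeq2 50.4%. The male log2 fold change of *CG15022* ranged from -0.34 to 0.79 with a library left out, and was -0.038 without *208-ΔA* male replicate 2, alone or with *208-ΔF* female replicate 2, and -0.43 without the *208-ΔG* libraries, where that of *CG18649* was 0.077. The fits without these sets of libraries were chosen after seeing the data. The 5 female values, from the contrast the genes were chosen by, kept their sign everywhere. With a library left out, the female value of *CG18649* ranged from -4.03 to -2.88, that of *CG7298* from -3.49 to -2.28 and that of *CG14834* from -1.70 to -1.12. For the relations with the chemoreceptor level, 1 rather than 2 passed on library sizes not scaled by TMM. By Spearman's rho, 5 of 20 most similar genes were shared. The causes were not tested. Between groups, the differences of replicate 1 and 2 correlated with r over 0.1 in 8 of 28 pairs of groups, in a range of -0.771 to 0.596. Libraries were therefore not paired by number, though this count cannot exclude a batch that some of them share. With a replicate block, 0 of the 5 genes was called in males and 0 of 15 between lines, and the male value of *CG15023* was 1.23.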
